A study of Mus musculus with 8 samples.

Results

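Cyp4a10, Cyp4a14, Cyp4a31 and Cyp4a32, the acyl-CoA thioesterase genes Acot1, Acot2, Acot3, Acot4 and Acot6, and the vanin gene Vnn1 were followed in mouse liver as a set of genes known as targets of the nuclear receptor PPARα. They were found by their symbols in the probe annotation of the array, and no measured value entered that search. Earlier results of these data were known when the genes were chosen. These 10 genes were carried by 16 of 62976 features (spots), and they made up 10 of the 20738 named genes tested. Total RNA from the liver of male mice of the outbred CD-1 stock was hybridised to 8 one-colour Agilent arrays. The 4 control arrays came from mice on a diet with 0 ppm NaPB for 7 days, and the other 4 from mice on a diet with 2500 ppm NaPB, sodium phenobarbital, for the same time. The labels give no age of the mice, no genetic change in either group, and no statement that each array was a separate animal. The p-values therefore measure the spread between these samples, which may be technical, and the number of arrays limits the precision.

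PPARα is a receptor for fatty acids that, paired with the retinoid X receptor, binds paired copies of a short core motif 1 base apart and raises transcription of genes of fatty acid breakdown, in fasting and under fibrate drugs. The Cyp4a enzymes hydroxylate fatty acids at the far end of the chain, and their genes are among the most responsive PPARα targets of rodent liver. The thioesterases split acyl-CoA into free fatty acid and coenzyme A: Acot1 works in the cytosol, Acot2 in mitochondria, and Acot3, Acot4 and Acot6 in peroxisomes. Vanin 1 is a pantetheinase that releases pantothenate, the precursor of coenzyme A. Phenobarbital acts mainly through another receptor, CAR, and the comparison here asks whether transcripts of the PPARα target genes differed between the diets.

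In the RefSeq gene table (GRCm38.p6 mouse assembly, used for gene order, since no build is named with the arrays) the 4 Cyp4a genes lie within 136 kb of chromosome 4 and the 5 Acot genes within 122 kb of chromosome 12, while Vnn1 is on chromosome 10. RefSeq promoter windows, which run from 250 bases before to 50 bases after a gene start, were found for 5 of the 10 genes: Cyp4a32, Acot1, Acot2, Acot3 and Acot4. Of these windows, 4 are shown. Acot3, Acot4 and Acot1 are neighbours whose intensities differed in opposite directions. Cyp4a32 is the only Cyp4a gene with a window, and nothing is known here of the windows of Cyp4a10, Cyp4a14 and Cyp4a31. Capitals mark AGGTCA, the core motif of these receptors, searched on both strands and written here on the plus strand as TGACCT. They also mark the 13 letters of a repeat of that core motif 1 base apart, with up to 2 of its 12 compared letters different. All 4 windows are on the plus strand, 5′ to 3′: Acot4 at chr12:84038129-84038428, Acot3 at chr12:84051894-84052193, Acot1 at chr12:84009252-84009551 and Cyp4a32 at chr4:115600688-115600987.
Acot4: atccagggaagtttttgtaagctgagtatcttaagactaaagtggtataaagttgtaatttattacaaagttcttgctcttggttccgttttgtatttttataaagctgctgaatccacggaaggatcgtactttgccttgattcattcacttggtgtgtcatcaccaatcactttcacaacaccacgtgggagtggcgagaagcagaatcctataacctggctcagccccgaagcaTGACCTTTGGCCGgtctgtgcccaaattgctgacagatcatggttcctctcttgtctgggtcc
Acot3: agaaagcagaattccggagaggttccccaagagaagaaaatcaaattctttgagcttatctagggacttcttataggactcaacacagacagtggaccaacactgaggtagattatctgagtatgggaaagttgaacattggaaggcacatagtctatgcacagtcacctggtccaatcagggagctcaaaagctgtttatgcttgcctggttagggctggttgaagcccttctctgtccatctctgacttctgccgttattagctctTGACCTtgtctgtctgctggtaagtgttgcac
Acot1: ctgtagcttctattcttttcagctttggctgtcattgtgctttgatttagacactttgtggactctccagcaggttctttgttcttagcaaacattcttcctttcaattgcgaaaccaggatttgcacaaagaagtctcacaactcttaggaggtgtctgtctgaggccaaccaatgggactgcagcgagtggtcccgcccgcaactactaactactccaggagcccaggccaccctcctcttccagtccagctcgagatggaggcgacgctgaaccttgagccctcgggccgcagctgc
Cyp4a32: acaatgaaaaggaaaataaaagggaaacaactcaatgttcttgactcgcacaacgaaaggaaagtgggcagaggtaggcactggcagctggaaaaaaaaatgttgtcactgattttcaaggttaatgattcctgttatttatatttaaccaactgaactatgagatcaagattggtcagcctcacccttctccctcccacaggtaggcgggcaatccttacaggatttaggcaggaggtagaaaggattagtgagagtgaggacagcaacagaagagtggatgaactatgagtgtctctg
The Acot4 window belongs to a start 1125 bases inside the gene as the RefSeq gene table places it, and it held a core motif 13 bases before that start, inside a repeat with 2 letters different that reads CGGCCAAAGGTCA on the minus strand. The Acot3 window held a core motif 19 bases after the start and no such repeat. Neither pattern was in the windows of Acot1, Acot2 and Cyp4a32. Over 32851 promoter windows of this length, 16.3% held the core motif and 3.86% the repeat, so that a match describes the letters and not a bound site.

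Among the 10 genes, Acot6 fell on the NaPB diet and none rose, by limma with Benjamini-Hochberg adjustment over all 20738 genes and a threshold of 0.05. In all genes 0.391% were called higher and 0.617% lower. At an unadjusted limma p under 0.05 there were 2 higher (Acot3 and Acot4) and 2 lower (Acot1 and Acot6), and over all genes there were 899 higher and 1196 lower. Log2 differences, NaPB minus control, lay above 0 for 4 of the genes (Acot2, Acot3, Acot4 and Vnn1) and below 0 for 6, with a median of −0.58, where the median over all genes was 0.01. The diets did not overlap for 1 of the 10, Acot6, which was lower. Over all genes 2.72% were without overlap and higher, and 4.31% without overlap and lower. With each feature tested by itself, 1 of the 16 features was called, the brighter one of Acot6. Among all 62976 features 0.329% were called higher and 0.692% lower.

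**Figure D1:**
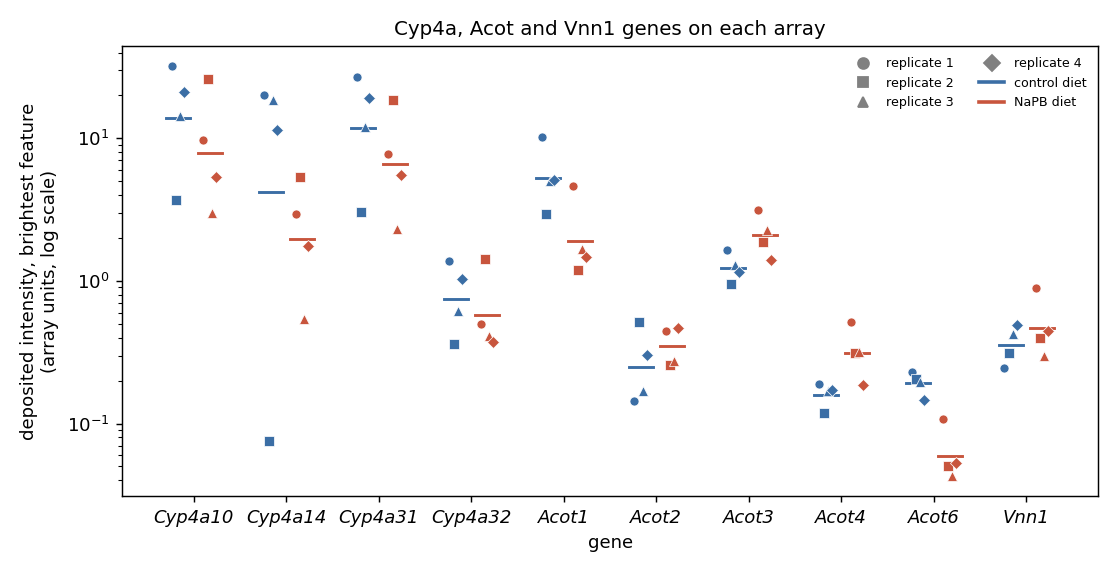
Deposited intensity (log axis) of the 10 genes on each array, by the brightest feature of each gene, with symbols for replicates, colours for diets and a bar at each geometric mean. Cyp4a14 spans at least 253-fold among the control arrays, since control replicate 2 is at the floor, and for Acot6 alone are all 4 NaPB arrays below all 4 control arrays.

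The Cyp4a genes differed more from array to array than between the diets. Cyp4a10, the best known PPARα-responsive ω-hydroxylase of mouse liver, had intensities (deposited units, linear scale) of 32.0, 3.70, 14.3 and 21.3 on control replicates 1 to 4. On NaPB replicates 1 to 4 they were 9.68, 26.0, 2.98 and 5.36. The diets overlapped throughout: the second highest of the 8 values was on NaPB replicate 2, and control replicate 2 was next to the lowest. Cyp4a10 differed by −0.79 ± 0.75 on the log2 scale (SE, 4 arrays per diet; 95% interval −2.44 to 0.86; limma adjusted p = 0.808). Within a diet its values spanned 8.66-fold (control) and 8.75-fold (NaPB), with log2 SDs of 1.35 and 1.33, while the median SD within a diet over all genes was 0.49.

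Cyp4a14, which shares the response of Cyp4a10 to fibrates, read 20.2, 0.0753, 18.5 and 11.5 on the control arrays and 2.94, 5.36, 0.543 and 1.76 on the NaPB arrays. Control replicate 2 lay at the floor, which is taken as values up to 2 times the lowest value of an array, and the 3 other control arrays were above all 4 NaPB arrays. With the value on control replicate 2 set to the floor of that array, 0.0801, it was at least 203-fold below the geometric mean of the other controls. Cyp4a14 was read by 1 feature, so this value rests on 1 spot. On the same array Cyp4a10, Cyp4a31 and Cyp4a32 were 5.77-fold, 6.01-fold and 2.65-fold below the other controls. The control SD was 3.85 on the log2 scale with the value at the floor and 0.44 over the other 3 control arrays. The log2 difference between diets was −1.11 ± 1.56 (95% interval −4.56 to 2.34; limma adjusted p = 0.879). Without control replicate 2 it was −3.05 (limma adjusted p = 0.0989), and without control replicate 1 it was −0.36. Over all alternatives tried the adjusted p ran from 0.0584 to 0.978, so Cyp4a14 was called in none of them.

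Cyp4a31, a close relative of Cyp4a10, read 26.9, 3.06, 12.1 and 19.1 on the control arrays and 7.79, 18.6, 2.30 and 5.58 on the NaPB arrays, and its log2 difference was −0.84 ± 0.73 (limma adjusted p = 0.786). Cyp4a32, the third close relative, read 1.37, 0.360, 0.614 and 1.03 against 0.500, 1.43, 0.410 and 0.374, with a log2 difference of −0.37 ± 0.51 (limma adjusted p = 0.874). This difference was 0.12 with control replicate 1 and NaPB replicate 4 both left out. In both genes the order of the arrays was much the same as for Cyp4a10, with control replicate 1 and NaPB replicate 2 high. The 4 Cyp4a genes are paralogs with near-identical coding sequences in part, and the probe sequences were not used here, so how much of a signal each feature takes from the other genes is uncertain.

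The 8 Cyp4a features kept a common pattern over the arrays. Correlations between them ran from 0.72 to 0.99 over the 8 arrays, and the brightest features of Cyp4a10 and Cyp4a31 reached 0.99. The arrays share their diet and scaling, so these correlations are descriptions. The 2 other features of Cyp4a10 gave log2 differences of −0.43 ± 1.06 and −0.65 ± 0.53. On the first of them the control arrays read 16.0, 0.487, 7.73 and 10 and the NaPB arrays 4.92, 16.2, 1.13 and 2.02. The other 2 features of Cyp4a31 gave −0.38 ± 0.40 and −0.56 ± 0.77. All 8 features lay below 0 and none was called.

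**Figure D2:**
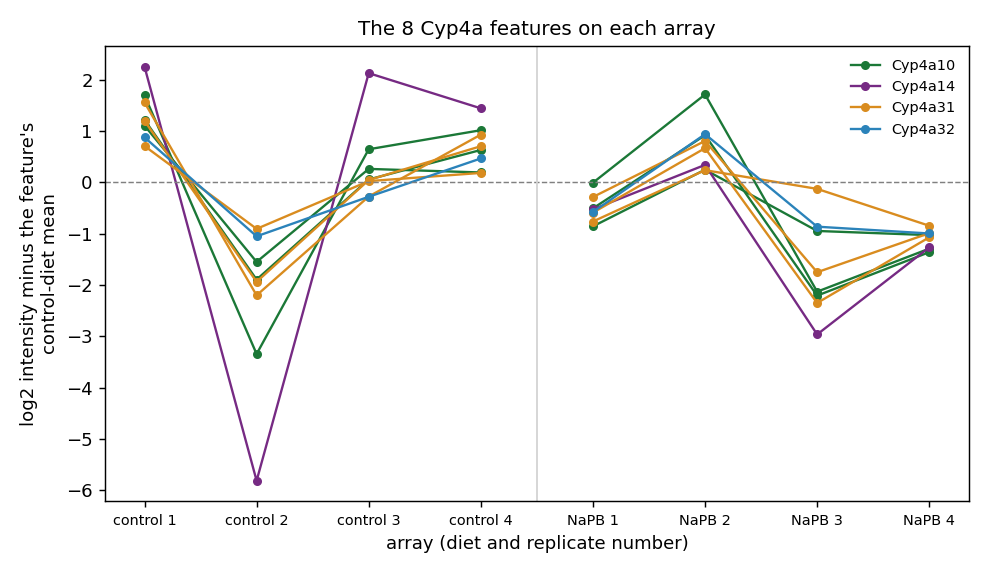
Intensity of each Cyp4a feature on each array, as the log2 difference from the mean of the control arrays, with 1 line per feature and the control arrays on the left. Control replicate 2 and NaPB replicate 3 are low and control replicate 1 and NaPB replicate 2 are high in most features, with Cyp4a14 lowest on control replicate 2.

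Each control array was set against the mean of the other control arrays, and each NaPB array against the mean of all 4 control arrays. The offsets of control arrays are therefore larger than they would be against all 4. By this measure the median Cyp4a gene lay at 1.61, −2.56, 0.06 and 0.89 log2 units on control replicates 1 to 4. On NaPB replicates 1 to 4 it lay at −0.55, 0.79, −2.28 and −1.17. The 10369 genes with a mean above the median had medians of 0.32, −0.31, 0.13 and −0.10 on the control arrays. On the NaPB arrays these medians were 0.17, 0.17, 0.09 and −0.27. Control replicate 2 was thus low in both, by more in the Cyp4a genes, and NaPB replicate 3 was low in the Cyp4a genes with the brighter genes near 0. The 99th percentile of intensity was 64.1 on control replicate 2 and 60.6 on NaPB replicate 4 and ran from 78.4 to 120 on the other arrays. The part of these array differences in the Cyp4a values was not tested.

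The other genes were set against Cyp4a14 with the mean of each diet removed, a relation chosen after the data were seen. Of 9 relations, those of Cyp4a10 and Cyp4a31 passed adjustment over the 9. Cyp4a10 had a Pearson r of 0.85 over 8 arrays (two-sided exact permutation within diets, p = 0.00521, adjusted p = 0.0391) and a Spearman rho of 0.90 (exact permutation p = 0.0243, adjusted p = 0.109). Cyp4a31 had an r of 0.88 (exact permutation p = 0.00868, adjusted p = 0.0391) and a rho of 0.90 (exact permutation p = 0.0243, adjusted p = 0.109). For Cyp4a32 r was 0.72 (exact permutation p = 0.0226, adjusted p = 0.0678) and rho was 0.80 (exact permutation p = 0.0625, adjusted p = 0.188).

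Leaving out the 2 arrays farthest from the median Cyp4a14 value, control replicate 2 and NaPB replicate 3, left r at 0.81 for Cyp4a10 (exact permutation p = 0.139) and at 0.74 for Cyp4a31 (exact permutation p = 0.222). The adjusted exact permutation p was 0.562 for both. With 3 arrays per diet there are 36 permutations and no p below 0.0278, so 1 relation alone at that p would not pass adjustment over the 9. With control replicate 2 alone left out, r was 0.88 and 0.90 (exact permutation p = 0.0556 and 0.0625), and the adjusted exact permutation p was 0.281 for both. For Cyp4a32 r was then 0.63 (exact permutation p = 0.292, adjusted p = 0.876). Over all 8 arrays the thioesterase genes and Vnn1 had r from −0.72 (Acot2) to 0.49 (Acot1), with adjusted exact permutation p of 0.227 or more. With the 2 farthest arrays left out, Acot2 had the strongest relation of the 9 (r −0.88, exact permutation p = 0.0278, adjusted p = 0.25). Its r was −0.13 with control replicate 2 alone left out (exact permutation p = 0.819).

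Among 9736 genes with a mean above the median and a named symbol, the 5 most like Cyp4a14 over the 8 arrays (Pearson r of log2 values, as a description) were Ifngr2 (0.96), Fbp1 (0.953), Ap3b1 (0.939), Dtnbp1 (0.922) and C4bp (0.916). Each was lowest or next to lowest on control replicate 2. Fbp1, which encodes the gluconeogenic fructose-bisphosphatase, read 129, 61.8, 163 and 151 on the control arrays and 127, 125, 93.2 and 100 on the NaPB arrays, so its range was far narrower than that of Cyp4a14. The lowest correlations were those of Cldn18 (−0.923), Mterf1b (−0.912) and Six3os1 (−0.911), which read highest on control replicate 2. By the same measure Cyp4a31 ranked 25, Cyp4a10 45 and Cyp4a32 365 among all 20738 genes.

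The thioesterase genes did not move in 1 direction. Acot6 fell 3.24-fold, Acot1 was 2.76-fold lower without passing the test over all genes, and Acot3 and Acot4 were 1.68-fold and 1.96-fold higher without passing it. Acot6 encodes a peroxisomal thioesterase. Its intensities were 0.230, 0.204, 0.197 and 0.146 on the control arrays and 0.108, 0.0503, 0.0430 and 0.0526 on the NaPB arrays. Every NaPB value lay below every control value, and those of NaPB replicates 2 and 3 were at the floor. The log2 difference was −1.70 ± 0.33 (95% interval −2.43 to −0.96; limma adjusted p = 0.0436). With the values at the floor set to it, the fold was 2.75. The dimmer feature of Acot6 was at the floor on all 4 NaPB arrays and 2 control arrays and had a log2 difference of −0.84.

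The call of Acot6 was close to the threshold. With 1 array left out it was kept without NaPB replicate 1 (limma adjusted p = 0.0257) and lost in the 7 other fits. The limma adjusted p was 0.0863, 0.113, 0.136 and 0.0840 without control replicates 1, 2, 3 and 4, and 0.122, 0.141 and 0.0622 without NaPB replicates 2, 3 and 4. Its direction was the same in the 22 alternatives that gave a value for Acot6, but most of them could not have changed it. The diets did not overlap, so leaving out arrays could not turn the sign. Other thresholds, the variance trend, the replicate block and the test of single features keep the same difference of −1.70.

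Acot1, the cytosolic thioesterase gene of the cluster, read 10.2, 2.97, 5.04 and 5.13 on the control arrays and 4.63, 1.19, 1.68 and 1.47 on the NaPB arrays. NaPB replicate 1 lay within the control range, and the 3 other NaPB arrays lay below all control arrays. The log2 difference was −1.46 ± 0.48 (95% interval −2.53 to −0.40; limma adjusted p = 0.267). Over the 8 arrays Acot1 and the brighter Acot6 feature correlated at 0.87, a value that holds the diet difference of both.

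Acot4, whose enzyme takes succinyl-CoA and other dicarboxylic acyl-CoA esters in peroxisomes, read 0.190, 0.118, 0.168 and 0.171 on the control arrays and 0.514, 0.312, 0.318 and 0.186 on the NaPB arrays. NaPB replicate 4 lay within the control range and the other 3 above it. The log2 difference was 0.97 ± 0.34 (95% interval 0.22 to 1.72; limma adjusted p = 0.310). Acot4 was called with array weights alone (limma adjusted p = 0.037), and over its 23 alternatives the adjusted p ran up to 0.641.

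Acot3 encodes a peroxisomal thioesterase for long chains, and its brighter feature read 1.65, 0.955, 1.29 and 1.16 on the control arrays and 3.14, 1.89, 2.26 and 1.40 on the NaPB arrays. NaPB replicate 4 lay within the control range, as for Acot4, and the order of the NaPB arrays was the same in both genes. The log2 difference of Acot3 was 0.75 ± 0.32 (limma adjusted p = 0.441). Acot3 and Acot4 correlated at 0.97 over the 8 arrays. The dimmer Acot3 feature read 0.279, 0.373, 0.252 and 0.412 against 0.303, 0.294, 0.204 and 0.225, a log2 difference of −0.35 ± 0.30, and its correlation with the brighter feature was −0.42. The 2 features of Acot3 thus disagree in direction. The Acot genes are paralogs, and a signal shared between features of neighbouring genes was not tested.

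Acot2, the mitochondrial enzyme, read 0.144, 0.513, 0.169 and 0.302 on the control arrays and 0.446, 0.256, 0.275 and 0.465 on the NaPB arrays, with all NaPB values inside the control range. Its log2 difference was 0.49 ± 0.42 (limma adjusted p = 0.784). Acot2 was highest on control replicate 2, where the Cyp4a genes were low. Along the chromosome the 5 Acot genes followed here come in the order Acot2, Acot1, Acot4, Acot3 and Acot6, and other genes of the region were not placed. Among these 5, Acot4 and Acot3 had the 2 largest positive differences and are next to each other in that order. They lie between Acot1 and Acot6, which had the 2 largest negative ones. Of these genes Acot6 alone was called, and the dimmer feature of Acot3 lay below 0 (log2 −0.35).

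Vnn1 read 0.245, 0.310, 0.425 and 0.489 on the control arrays and 0.892, 0.400, 0.297 and 0.446 on the NaPB arrays. Only NaPB replicate 1 lay above the control range. The log2 difference was 0.40 ± 0.38 (limma adjusted p = 0.814), and 0.08 without NaPB replicate 1.

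**Figure D3:**
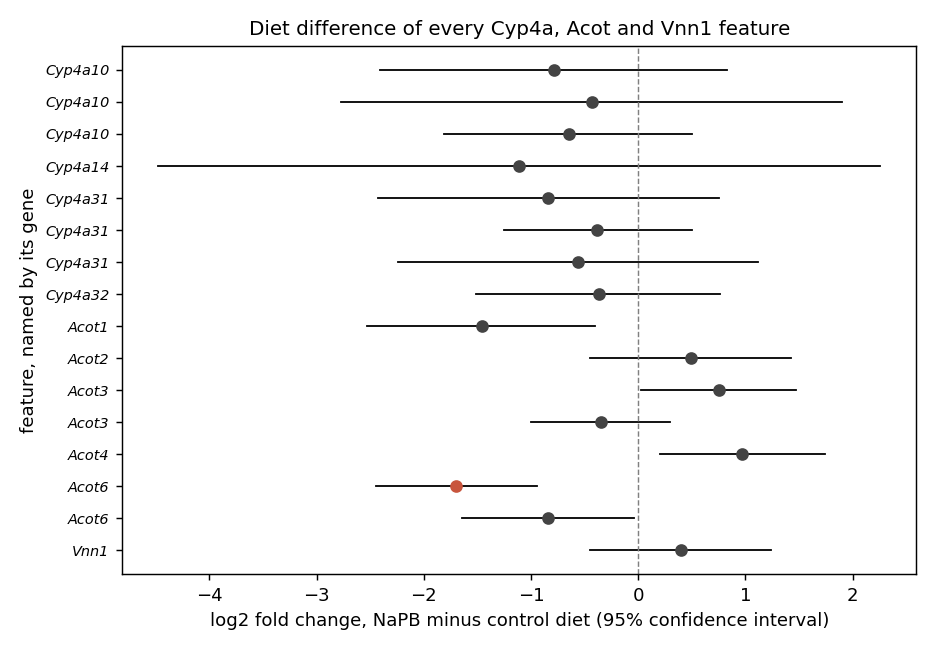
Log2 difference, NaPB minus control, of each of the 16 features, with 95% intervals from the limma fit of all features (4 arrays per diet) and the called feature in red. The 8 Cyp4a features all lie below 0 with intervals that cross it, while the Acot features lie on both sides and those of Acot6 and Acot1 are lowest.

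The intervals show how large a difference these arrays leave possible. For Cyp4a10 the ratio of NaPB to control had a 95% interval from 0.185 to 1.81, and for Cyp4a14 one from 0.0424 to 5.08, which reach both sides of 1. For Acot6 the ratio was 0.309, with an interval from 0.185 to 0.514. The intervals hold for 1 gene at a time and are not adjusted for the number of genes tested, and those of Acot1, Acot3 and Acot4 also left out 1 while the adjusted p did not pass. A bulk measurement of liver RNA cannot tell fewer cells of a type from less RNA per cell.

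Other PPARα target genes, in lists taken by function, were not called in either direction. Of 52 measured genes in 3 lists (peroxisome, mitochondria and lipid handling), 12 lay above 0 and 40 below it, with a median log2 difference of −0.28. Over all genes 51.2% lay above 0 and the median was 0.01. At an unadjusted limma p under 0.05 there were 1 higher and 5 lower in the 3 lists, and 899 higher and 1196 lower among all 20738 genes. Without NaPB replicate 4, 29 lay below 0 and the median was −0.03. On the NaPB arrays the medians of these genes from the control mean were 0.30, −0.09, −0.29 and −0.99 log2 units for replicates 1 to 4, so replicate 4 was low here, whereas replicate 3 was lowest in the Cyp4a genes.

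In the peroxisome list, 3 of 14 measured genes lay above 0 and 11 below (median −0.29). Crot, carnitine octanoyltransferase, had a log2 difference of −0.73 ± 0.31 (limma adjusted p = 0.446), and Ech1, an auxiliary enzyme of unsaturated fatty acid breakdown, of −0.69 ± 0.33 (limma adjusted p = 0.551). Acaa1b, a peroxisomal thiolase, read 4.59 on NaPB replicate 4 and 26.0 to 34.6 on the other NaPB arrays. Its log2 difference of −1.05 ± 0.57 was −0.38 without that array. In the mitochondria list, 3 of 14 lay above 0 and 11 below (median −0.20). Hadha, a subunit of the trifunctional protein, read 2.54, 1.48, 1.67 and 1.55 against 1.34, 1.33, 1.07 and 0.831, without overlap (log2 −0.66 ± 0.29; limma adjusted p = 0.479). It was the 1 gene of these 14 without overlap, where 4.31% of all genes were without overlap and lower. The acyl-CoA dehydrogenase gene Acadvl differed by −0.56 ± 0.32 and the thiolase gene Acaa2 by −0.62 ± 0.37. At an unadjusted limma p under 0.05, the peroxisome list held none higher and 1 lower, and so did the mitochondria list.

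In the lipid handling list, 6 of 24 genes lay above 0 and 18 below (median −0.29), with 1 higher and 3 lower at an unadjusted limma p under 0.05. Pnpla2, the adipose triglyceride lipase gene, read 1.88, 1.14, 1.57 and 1.32 on the control arrays and 2.55, 2.53, 2.37 and 3.07 on the NaPB arrays. Its diets did not overlap, and the log2 difference was 0.85 ± 0.26 (limma adjusted p = 0.228). No other gene of the 24 was without overlap, and over all genes 2.72% were without overlap and higher. Pnpla2 was called with array weights (limma adjusted p = 0.0435) and in no other alternative. Retsat, a retinol saturase gene, differed by −1.19 ± 0.44 (limma adjusted p = 0.348) and Plin5, a lipid droplet coat gene, by −0.80 ± 0.33 (limma adjusted p = 0.424). Fgf21, a hormone gene of this list, was at the floor on all arrays.

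**Figure D4:**
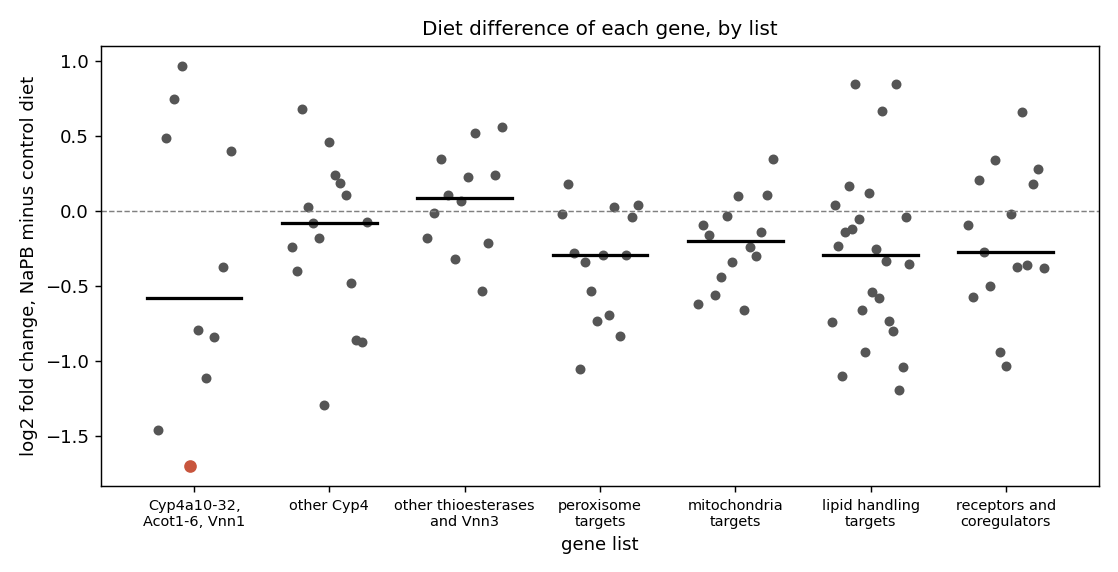
Log2 difference, NaPB minus control, of every measured gene in 7 lists, with 1 point per gene, a bar at the median of each list and the called gene in red. The medians lie between −0.58 for the Cyp4a, Acot and Vnn1 genes and 0.09 for other thioesterases, and Acot6 is the only gene called.

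Ppara itself, the receptor gene, read 29.8, 16.4, 29.5 and 17.9 on the control arrays and 14.0, 13.6, 9.84 and 10 on the NaPB arrays. All NaPB values were below all control values, a 1.92-fold difference (log2 −0.94 ± 0.30) that did not pass over all genes (limma adjusted p = 0.249; 0.0527 to 0.563 over the alternatives). The related receptor gene Ppard differed by −1.03 ± 0.39 (limma adjusted p = 0.365) and the coactivator gene Med1 by −0.57 ± 0.30 (limma adjusted p = 0.596). In all, 5 of 15 receptor and coregulator genes lay above 0 and 10 below, with a median of −0.27. None was called, and none was higher and 2 were lower at an unadjusted limma p under 0.05. Without overlap were 2 of the 15, both lower, where 4.31% of all genes were without overlap and lower.

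**Figure D5:**
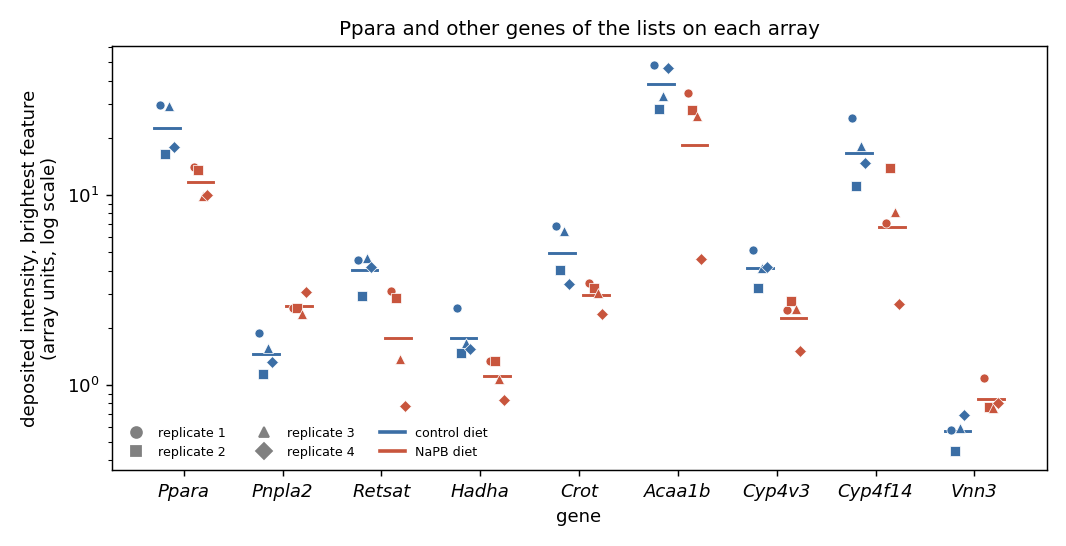
Deposited intensity (log axis, brightest feature) of Ppara and 8 genes of the other lists on each array, with symbols for replicates, colours for diets and bars at the geometric means. Ppara, Hadha and Cyp4v3 are lower and Pnpla2 and Vnn3 higher on every NaPB array than on any control array, and Acaa1b reads 4.59 on NaPB replicate 4. The genes shown are among the 3 of smallest limma p in their list. Over all genes 2.72% were without overlap and higher, and 4.31% without overlap and lower.

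Beyond the 4 Cyp4a genes, 15 other P450 genes of family 4 had a median log2 difference of −0.08, with 6 above 0 and 9 below. None was called, and 2 were lower and none higher at an unadjusted limma p under 0.05. Cyp4v3, a fatty acid ω-hydroxylase, read 5.16, 3.23, 4.15 and 4.18 against 2.47, 2.76, 2.50 and 1.51, without overlap (log2 −0.87 ± 0.29; limma adjusted p = 0.272). It was the 1 gene of these 15 without overlap, where 4.31% of all genes were without overlap and lower. Cyp4f14, known for ω-oxidation of leukotriene B4, differed by −1.29 ± 0.47 (limma adjusted p = 0.344), and Cyp4f39, of very long chain fatty acids, by −0.48 ± 0.34 (limma adjusted p = 0.741).

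Among 12 other thioesterase and vanin genes, 7 lay above 0 and 5 below (median 0.09), and none was called or had an unadjusted limma p under 0.05. Vnn3, next of kin to Vnn1, read 0.580, 0.449, 0.592 and 0.693 on the control arrays and 1.09, 0.768, 0.754 and 0.806 on the NaPB arrays. These values did not overlap (log2 0.56 ± 0.26; limma adjusted p = 0.522). No other gene of the 12 was without overlap, and over all genes 2.72% were without overlap and higher. Baat, which joins bile acids to amino acids, differed by −0.53 ± 0.30 (limma adjusted p = 0.651). Acot9, a mitochondrial thioesterase gene, differed by 0.52 ± 0.44 (limma adjusted p = 0.778) and by −0.05 with control replicate 1 and NaPB replicate 4 left out.

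On the same arrays Cyp2b10, the P450 gene classically induced through CAR, was 114-fold higher on the NaPB diet (limma adjusted p = 0.0018), and Cyp2c55 had a log2 difference of 6.65 ± 0.67 (limma adjusted p = 0.0018) with 3 control arrays at the floor. Nr1i3, which encodes CAR, differed by −0.21 ± 0.33 and was not called. Hepatocyte markers (6 of 6 measured) summed to 3800 to 6220 on the control arrays and 2550 to 4450 on the NaPB arrays, but a sum follows the brightest genes of its list. Of these 6 genes 3 lay above 0 and 3 below, with a median log2 difference of −0.15, and none was called. Markers of Kupffer cells (6 of 6) summed to 16.5 to 19.0 and 12.6 to 14.1, with 1 above 0 and 5 below and none called. The 5 neutrophil markers measured of 6 summed to 30.5 to 124 and 74.6 to 188, with 4 above 0 and 1 below. S100a8, which read 0.246 to 0.464 on the control arrays and 2.02 to 126 on the NaPB arrays, was called higher, and no other neutrophil marker was called. Endothelial markers summed to 92.5 to 191 and 117 to 193, stellate cell markers to 1.81 to 2.74 and 2.09 to 3.49, cholangiocyte markers to 1.39 to 4.05 and 2.66 to 4.02, and adipocyte markers to 2.09 to 3.49 and 2.02 to 3.16, with 5 of 5 genes measured in each. Above and below 0 lay 2 and 3 endothelial, 4 and 1 stellate cell, 3 and 2 cholangiocyte and 2 and 3 adipocyte markers, and none of them was called. No marker was at the floor on all 8 arrays. The part of these markers in the values of the Cyp4a, Acot and Vnn1 genes was not tested.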

How the data were processed

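The deposited table holds spot intensities on a linear scale from one-colour arrays, which the authors quantified with Agilent Feature Extraction 10.7, per the submitters' processing notes; the 75th percentile of every array is close to 1, and the sources used here give no build, background correction or rule of scaling. Symbols came from the platform annotation, updated through the RefSeq gene table, which left 20738 genes.

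Values were taken as log2 with no pseudocount and no filter on dim genes, and each gene was represented by its feature with the highest mean. Diet was fitted with limma 3.58.1 (R 4.3.3; empirical Bayes, two-sided, no replicate block) on 4 control and 4 NaPB arrays, with Benjamini-Hochberg adjustment over all genes, or over all 62976 features in a second fit, and a threshold of 0.05. The model was tested on simulated data. Exact permutations within diets (576) served the correlations with Cyp4a14, which were added after the data were seen. Same-numbered arrays of the diets did not deviate together in every pair, so the numbers were not used as pairs.

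The genes, lists and tests were chosen with earlier results of these data known. Named genes are the 10 with all features, from each other list the called genes or else the 3 of smallest p, Ppara, 3 index genes, and the 5 genes most and 3 least like Cyp4a14; S100a8, Fgf21 and Cidec were named outside this rule. Alternatives were 3 other scalings, filters on dim genes, the mean of features, pseudocounts, weights per array, a robust variance trend, the replicate block, other thresholds, and arrays left out; leaving out control replicate 2 with NaPB replicate 2 was chosen after seeing the data. Python 3.11.15 was used with pandas 2.3.3, numpy 2.4.6 and, for figures, matplotlib 3.10.9.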

Additional observations from a re-analysis of the deposited data

Results flagged for a closer look

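In 5 of the 62 groups of 4 arrays tested, 1 array stood far from the other 3, by the gap to its nearest neighbour as a share of the whole range on the log2 scale (Dixon's test at the 95% level). Chance flags about 1 group in 20.

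Cyp4a14 on control replicate 2 read 0.0753, a value at the floor, with the next control at 11.5, a share of 0.899. Baat on control replicate 1 read 9.33, with the next control at 5.59, a share of 0.896. NaPB replicate 4 was the lowest of its diet for 3 genes: Acaa1b read 4.59 there and 26.0 on the next array (0.860), Med1 read 25.9 and 43.8 (0.838), and Cyp2b10 read 77.7 and 430.0 (0.898).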

How the results depend on the processing

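The count of Cyp4a, Acot and Vnn1 genes called lower was 1 with all arrays, and again with the arrays set to the same 75th percentile, with array weights, with every feature tested singly and at a threshold of 0.1. It was 0 with quantile normalization, with the same median, with either filter on dim genes (where Acot6 has no value), with the mean of all features, with a pseudocount of 1 or of the 5th percentile, with a variance trend and robust estimation, with either pair of arrays left out and at a threshold of 0.01. With 1 array left out it ran from 0 to 1. The count called higher was 1 with array weights (Acot4, log2 1.24) and 0 in all other settings. The log2 difference of Acot6 ran from −1.98 to −0.17 over these settings, the smallest with a pseudocount of 1, with limma adjusted p of 0.0257 to 0.234. With the replicate block, the count called lower was 0, Acot6 had a log2 difference of −1.70 (limma adjusted p = 0.0603), and 58 genes in all were called higher and 77 lower, against 81 and 128 without it. Arrays with the same number had correlations of their deviations from the diet mean of 0.23, −0.29, 0.04 and 0.23, and not every array correlated best with its own number.

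Reversed differences were those of Cyp4a32 (0.12), Acot9 (−0.05) and Nr1i3 (0.09) with control replicate 1 and NaPB replicate 4 left out. The difference of Nr1i3 ran from −0.41 to 0.01 with 1 array left out, the latter without control replicate 1. The other Cyp4a, Acot and Vnn1 genes, the genes named from the other lists by the smallest p, Ppara, Cyp2b10 and Cyp2c55 kept their direction in every setting that gave a value; S100a8, Fgf21, Cidec and the genes most and least like Cyp4a14 were not followed through the settings. Settings that change only the threshold or the variance model keep the same difference, so they could not turn a direction. The cause of the changes was not tested.

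Over all genes the counts called higher and lower were 458 and 354 with array weights, 100 and 224 with quantile normalization, 46 and 65 with the same median, 211 and 154 without NaPB replicate 4, and from 36 to 211 and from 48 to 154 with 1 array left out. With the mean of all features 1 gene of the lipid handling list, Cidec, was called higher. Within-diet r with Cyp4a14 ran from 0.83 to 0.92 for Cyp4a10 and from 0.86 to 0.93 for Cyp4a31 with 1 array left out. Without control replicate 2 the adjusted exact permutation p was 0.281 for both. Values near the floor, as for Acot6 on the NaPB diet, limit the size of a fall that can be read.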
